A study of Homo sapiens with 24 samples.

Results

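The genes described here are 38 genes of the amino acid stress response governed by the transcription factor ATF4. They were listed by name from what is known of the pathway, with earlier results of these data already known. Each symbol matched 1 identifier among the 58735 genes of the count files. They fall into 7 groups by role: transcription regulators, stress effectors, enzymes of serine, glycine and folate-bound carbon units, enzymes of asparagine and proline synthesis, transsulfuration enzymes, amino acid transporters and cytosolic tRNA synthetases. In the melanoma cells studied, 37 of the 38 had enough counts to be tested. The secreted glycoprotein gene STC2 did not, with 1, 7 and 1 reads in siSREBF1, ASO-SREBF1-S1 and ASO-SREBF1-S4 and 0, 2 and 0 reads in mock, siNegative and ASO-Neg.

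ATF4 is a basic leucine zipper protein whose mRNA is translated more efficiently when the initiation factor eIF2 is phosphorylated, as happens when amino acids run short or when the endoplasmic reticulum, heme supply or mitochondria are under stress. It pairs with C/EBP family proteins on composite promoter elements and raises the transcription of genes that make amino acids, bring them into the cell and load them onto tRNA. Its targets include factors such as CHAC1, SESN2 and TRIB3, some of which feed back on growth signalling or on ATF4 itself.

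RNA was sequenced from HT-144, an established melanoma line of metastatic origin, after 3 days of lipid-mediated transfection in RPMI-1640 supplemented with insulin, transferrin, selenium and glutamine. The SREBF1-targeting groups were siSREBF1 (a pool of small interfering RNAs at 50 nM), ASO-SREBF1-S1 and ASO-SREBF1-S4 (2 antisense oligonucleotides, ASOs, at 5 nM each). The control groups were mock (no oligonucleotide named in the labels), siNegative (a scrambled siRNA at 50 nM) and ASO-Neg (a control ASO at 5 nM). An ASO is a single strand that binds a complementary RNA and can direct its cleavage. SREBF1 makes a factor that switches on the genes of fatty acid synthesis, and by its title the series studied the specific effects of an ASO that depletes it. Each group was 1 library of 1 cell line, read in 4 lanes that were summed, so 3 SREBF1-targeting libraries stand against 3 controls and p-values measure the spread between libraries given different reagents.

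The libraries siSREBF1, ASO-SREBF1-S1 and ASO-SREBF1-S4 held 13206869, 47900277 and 15901894 gene counts, against 12916478, 20014261 and 17415823 in mock, siNegative and ASO-Neg, so ASO-SREBF1-S1 was by far the deepest. SREBF1 had 54.9, 76.9 and 70.3 CPM in the 3 SREBF1-targeting libraries, in the order just given, against 231.5, 249.3 and 217.1 CPM in the controls, so the targeted gene matched the labels (log2 ratio -1.78, edgeR adjusted p = 0.00164). CPM are read counts relative to library size, after TMM, edgeR's correction for RNA composition. The 8 melanocyte lineage markers summed to between 4123 and 5587 CPM in the SREBF1-targeting libraries and between 4795 and 6281 CPM in the controls. All 4 immune markers and the epithelial marker were under 1 CPM in every library, as were 2 of 3 keratinocyte and 2 of 3 endothelial markers. CPM are shares of the RNA of a whole culture, so a change in RNA per cell and a change in the cells that hold it cannot be told apart.

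The DNA element that ATF4 and C/EBP proteins share was looked for in the members' promoters. The members were listed as known ATF4 targets, so how often it occurs in them is not independent of that choice. The core searched was TGATGNAA, read as TTNCATCA on the other strand, in RefSeq promoter windows of GRCh38.p14 that run from 250 bases before to 50 bases after a RefSeq transcript start. A window was available for 32 of the 38 members, and 13 of these (40.6%) held the core on either strand, against 4.46% of all 27305 genes with a window and 2.82% of the 11599 tested genes with one. The sites printed are the 3 in members that rose with ASO-SREBF1-S1, the site of SLC1A4, the member that fell with ASO-SREBF1-S4, and the site of ASNS. Each is 30 bases, written 5′ to 3′ on the strand of its gene, with the core in capitals and with coordinates on GRCh38.
CEBPG, chr19:33374060-33374089, plus strand: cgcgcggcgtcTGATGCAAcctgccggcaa
CHAC1, chr15:40953251-40953280, plus strand: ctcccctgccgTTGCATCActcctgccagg
GARS1, chr7:30594834-30594863, plus strand: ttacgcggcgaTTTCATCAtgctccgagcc
SLC1A4, chr2:64989381-64989410, plus strand: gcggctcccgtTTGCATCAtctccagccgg
ASNS, chr7:97872458-97872487, minus strand: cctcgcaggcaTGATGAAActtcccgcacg
The core lay upstream of the RefSeq start in CEBPG, CHAC1, GARS1 and ASNS, beginning 42, 209, 33 and 68 bases before it. In SLC1A4 the core began 7 bases before the start, and the printed 30 bases reached past the start. The sites of CEBPG, CHAC1, GARS1, SLC1A4 and ASNS lie inside the GENCODE spans of these genes, which begin at the outermost annotated transcript. The other 8 members with a match were JDP2, SLC3A2, SLC7A1, SLC1A5, AARS1, CARS1, MARS1 and NARS1. A match is a description of the letters in a window and not a measured binding site.

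Across all 3 SREBF1-targeting libraries against the 3 controls, the members showed no shared change that passed the test. CHAC1, which breaks down glutathione, had the largest difference (log2 ratio 1.23), followed by SESN2, a stress-induced inhibitor of mTORC1 signalling (0.60), and the regulators JDP2 (0.45) and CEBPG (0.42). Without ASO-SREBF1-S1 the CHAC1 ratio was 0.56. In edgeR's quasi-likelihood test 0 of 37 members were called higher and 0 lower at an adjusted p under 0.05, where 0.0198% of the 15123 genes tested were called higher and 0.0397% lower. At an unadjusted p under 0.05, 5 members were higher and 0 lower, out of 1546 genes. The median log2 ratio of the members was 0.08, or -0.02 without ASO-SREBF1-S1, and that of all genes tested was 0.01. DESeq2's Wald test called 1 member, SESN2, higher, out of 77 genes.

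Those 5 members were also the ones whose SREBF1-targeting libraries lay above all 3 controls: CEBPG, JDP2, CHAC1, SESN2 and WARS1. They are 5 of 37 members, where 8.86% of all genes tested separated upwards. No member lay below all 3 controls, where 8.54% of all genes did. CEBPG had 42.1, 47.4 and 39.6 CPM in siSREBF1, ASO-SREBF1-S1 and ASO-SREBF1-S4, against 31.2, 29.7 and 35.9 CPM in mock, siNegative and ASO-Neg. JDP2, a repressor that binds the same kind of site as AP-1, had 5.14, 5.03 and 4.30 CPM in the 3 SREBF1-targeting libraries, in the same order, against 3.13, 3.69 and 3.76 CPM in the controls. The groups did not overlap for either gene, and for both the gap between them was smaller than the range within the SREBF1-targeting libraries.

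The ASO-SREBF1-S1 library stood apart from the rest over these genes. It was the highest of the 6 libraries for 26 of 37 members, against 19.1% of all genes tested, while ASO-SREBF1-S4 was the highest for 0 members, against 21.3% of all genes, and the lowest for 9 of 37, near the 21.8% of all genes. Against the 3 controls, 12 of 37 members were called higher with ASO-SREBF1-S1 and 0 lower, where 2.12% of 16297 genes were called higher and 3.18% lower. At an unadjusted p under 0.05 edgeR had 21 members higher and 2 lower, out of 1393 and 1650 genes. DESeq2 called 7 members higher and 0 lower after adjustment, out of 96 and 271 genes. The 12 were ATF4, ATF5, CEBPG, NUPR1, CHAC1, SESN2, PSAT1, PSPH, MTHFD2, GARS1, WARS1 and YARS1. The members' median log2 ratio was 0.29, that of all genes was -0.0001, and 33 of 37 members lay above 0. The 95th percentile of all genes was 0.46, and 12 members exceeded it.

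**Figure D1:**
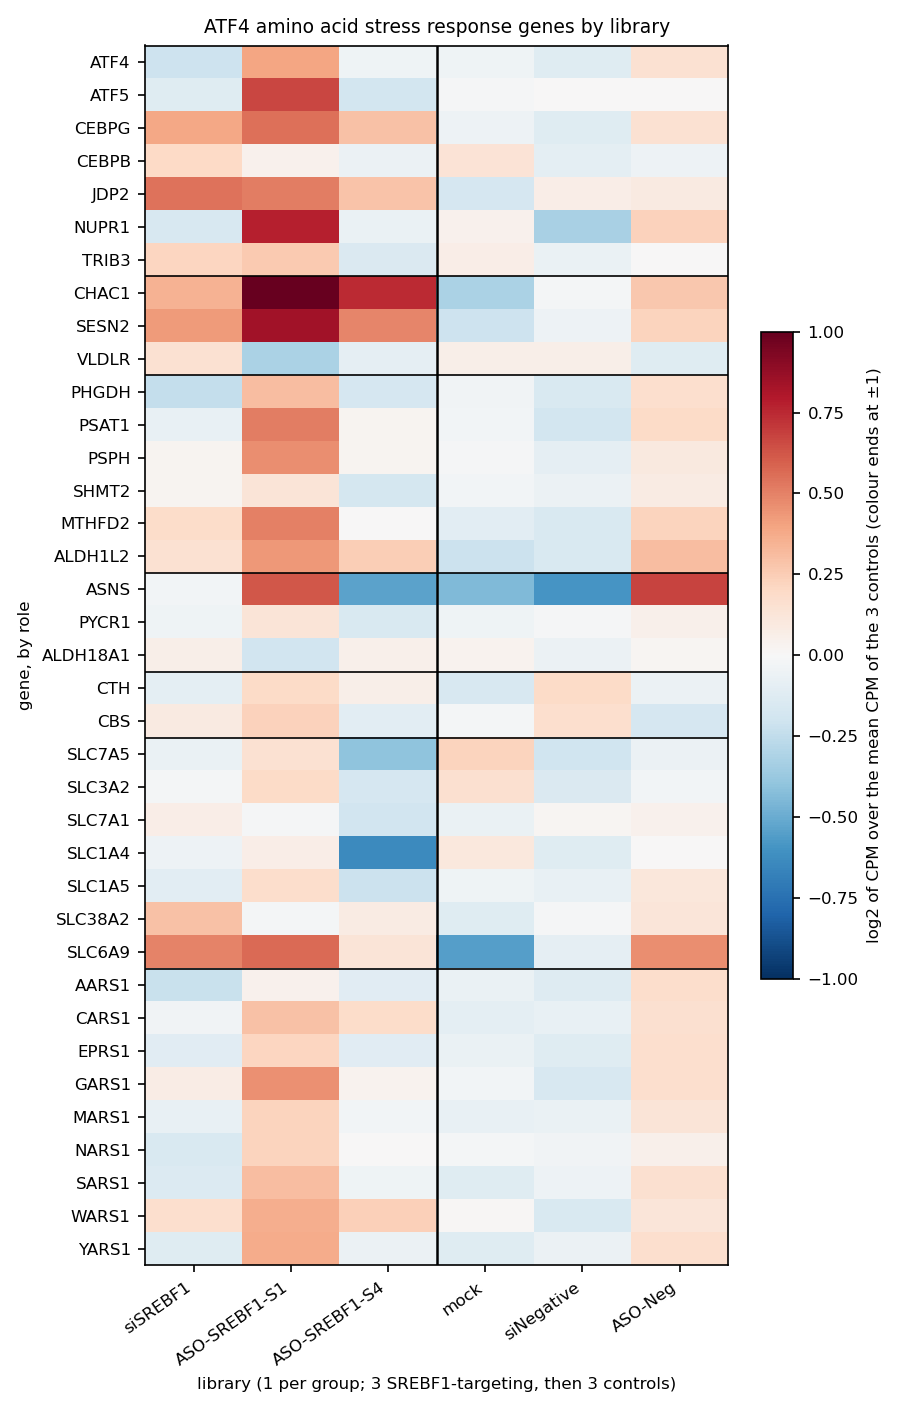
Each row is 1 of the 37 tested genes, ordered by role, and each column 1 library, with SREBF1-targeting libraries left of the line and controls right of it. Colour is the log2 of CPM over the mean of the 3 controls, ending at ±1. The ASO-SREBF1-S1 column is the highest of the 6 for 26 genes, and ASO-SREBF1-S4 is the highest for 0.

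In these tests a single library is set against 3 controls and is assumed to vary as they do. The calls moved with the controls used: the 12 became 9 without siNegative, when ATF4, WARS1 and YARS1 no longer passed, 16 without mock and 22 without ASO-Neg. The number of all genes called higher moved with them, at 345 with the 3 controls, 214 without siNegative, 493 without mock and 726 without ASO-Neg. With ASO-SREBF1-S1 thinned at random to the 15901894 counts of ASO-SREBF1-S4 and the controls unchanged, 10 members were called, without WARS1 and YARS1, out of 221 genes. CHAC1, SESN2, ATF5, CEBPG and GARS1 passed under every alternative tried, with highest adjusted p values of 0.00204, 0.0114, 0.0274, 0.0295 and 0.0435.

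With siSREBF1, 0 members were called higher and 0 lower, where 1.71% and 1.86% of all genes were, and the members' median was -0.02. At an unadjusted p under 0.05, edgeR had 5 members higher and 1 lower, out of 1306 and 1321 genes, and DESeq2 called 0 after adjustment. Without ASO-Neg 5 members were called higher with siSREBF1, and without mock 1, while the genes called higher numbered 556 and 436, against 279 with all 3 controls. With ASO-SREBF1-S4, 0 members were called higher and 1 lower, SLC1A4, where 2.99% and 3.02% of all genes were, and the median was -0.05. At an unadjusted p under 0.05 edgeR had 4 members higher and 4 lower, near the background of 1660 and 1779 among 16297 genes, and DESeq2 called 0 higher and SLC1A4 lower. Without ASO-Neg the ASO-SREBF1-S4 counts were 6 members higher and 2 lower, while those of all genes were 837 and 1041, against 487 and 492 with all 3 controls. Without siNegative they were 0 members higher and 2 lower, and 515 and 487 genes. Without ASO-Neg the medians were also of the other sign, at 0.05 for siSREBF1 and 0.03 for ASO-SREBF1-S4.

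**Figure D2:**
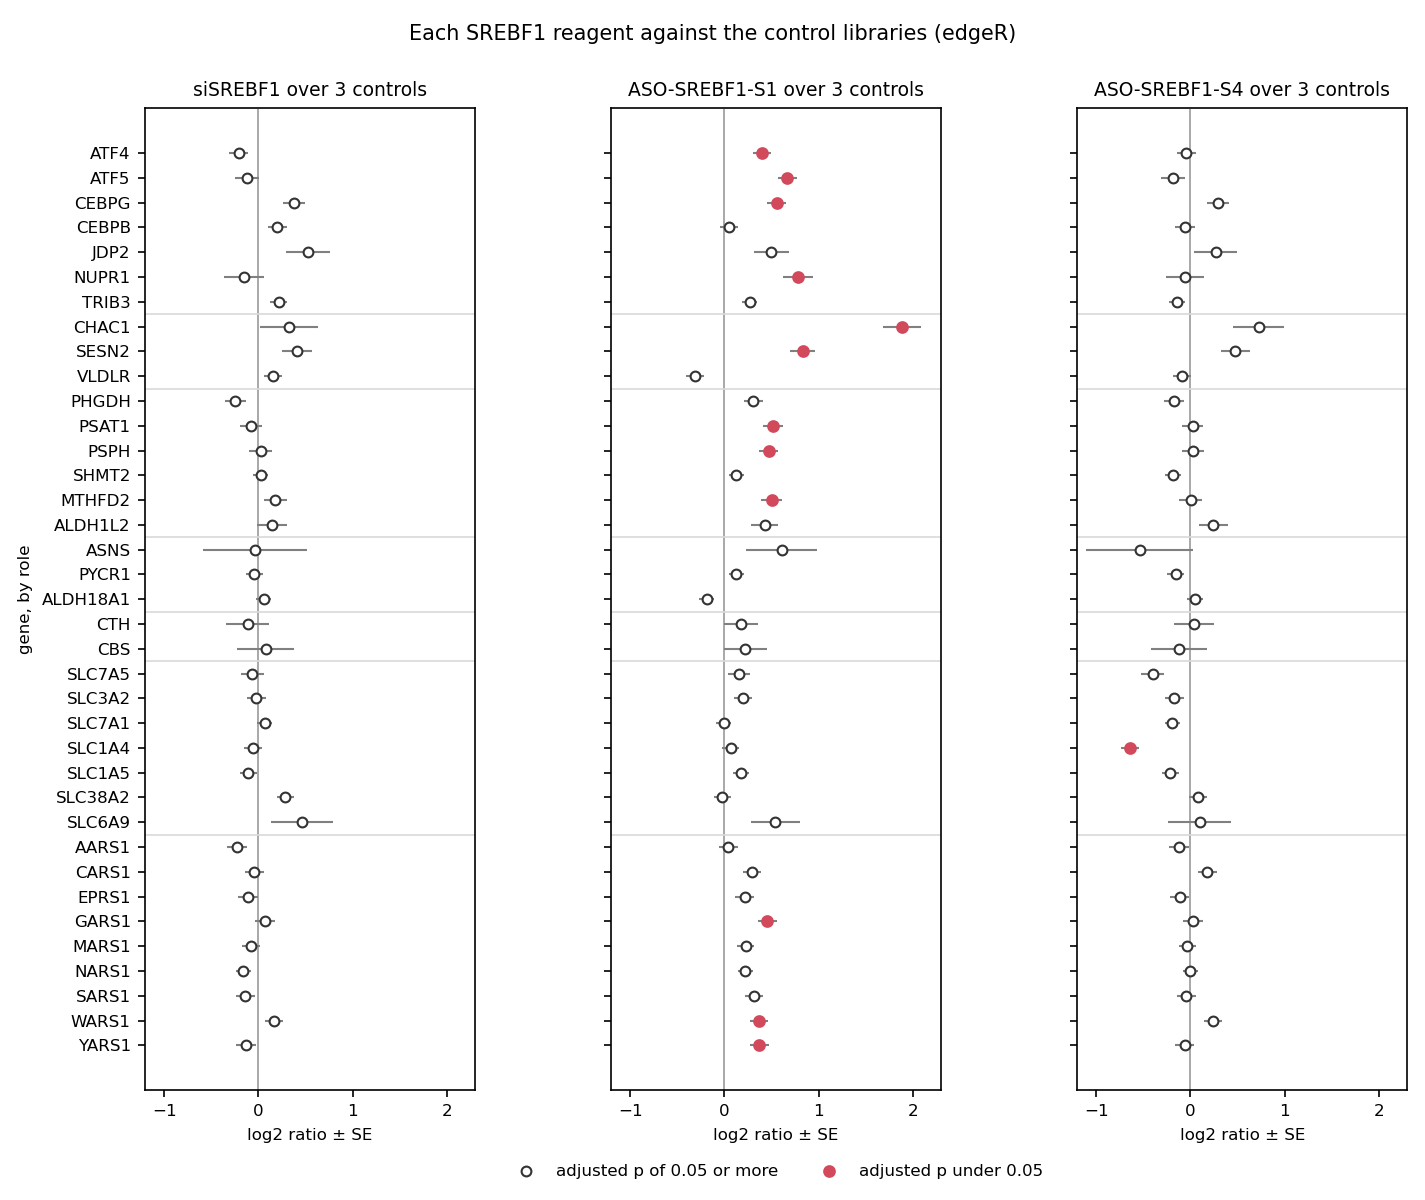
Points are edgeR log2 ratios of each SREBF1 reagent over the 3 controls for the 37 tested genes and lines are ± 1 SE; filled points passed an adjusted p of 0.05. Filled points number 0 for siSREBF1, 12 for ASO-SREBF1-S1, all right of 0, and 1 for ASO-SREBF1-S4, SLC1A4, left of 0.

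Among the 7 transcription regulators, 4 rose with ASO-SREBF1-S1 and the other 3, CEBPB, JDP2 and TRIB3, did not pass. ATF4 itself (chromosome 22, 39519695 to 39522683, plus strand) had 240.7, 365.6 and 269.3 CPM in siSREBF1, ASO-SREBF1-S1 and ASO-SREBF1-S4, against 268.6, 254.9 and 308.7 CPM in mock, siNegative and ASO-Neg. ASO-SREBF1-S1 was above all 3 controls and siSREBF1 below them (ASO-SREBF1-S1 log2 ratio 0.40, SE 0.10, edgeR adjusted p = 0.0269). These are mRNA levels, and the translation through which ATF4 is mainly controlled was not measured here.

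ATF5 (chromosome 19, 49928702 to 49933935, plus strand), a relative of ATF4 under the same kind of translational control, had 15.8, 27.3 and 15.1 CPM in siSREBF1, ASO-SREBF1-S1 and ASO-SREBF1-S4, against 17.0, 17.2 and 17.2 CPM in mock, siNegative and ASO-Neg. The controls were nearly equal and ASO-SREBF1-S1 alone lay above them (log2 ratio 0.67, SE 0.10, edgeR adjusted p = 0.00192). NUPR1 (chromosome 16, 28532708 to 28539008, minus strand), a small chromatin-associated stress protein, had 8.49, 16.3 and 9.09 CPM in the SREBF1-targeting libraries, in the same order, against 9.79, 7.59 and 11.2 CPM in the controls. It rose with ASO-SREBF1-S1 (log2 ratio 0.79, SE 0.16, edgeR adjusted p = 0.0118), while the other 2 SREBF1-targeting libraries lay within the control range. The NUPR1 call held under 10 of 11 alternatives tried. Apart from small RNA genes, unnamed loci overlap NUPR1, MTHFD2 and ASNS on their own strands, and MYADML2 overlaps PYCR1. The counts of these genes are uncertain to that extent.

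CEBPG (chromosome 19, 33373685 to 33382686, plus strand), the C/EBP protein that forms a heterodimer with ATF4, rose with ASO-SREBF1-S1 (log2 ratio 0.56, SE 0.10, edgeR adjusted p = 0.00605). Its ratios with siSREBF1 and ASO-SREBF1-S4 were 0.38 and 0.29 and did not pass (edgeR adjusted p = 0.0934 and 0.152). CEBPB, another C/EBP partner, had ASO-SREBF1-S1 at 54.0 CPM, inside the control range of 49.1 to 57.7 CPM. TRIB3, the pseudokinase that feeds back on ATF4, had 86.7, 89.7 and 67.7 CPM in siSREBF1, ASO-SREBF1-S1 and ASO-SREBF1-S4, against 78.0, 71.2 and 74.8 CPM in the controls, and its ASO-SREBF1-S1 ratio of 0.27 missed the threshold (edgeR adjusted p = 0.0769).

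**Figure D3:**
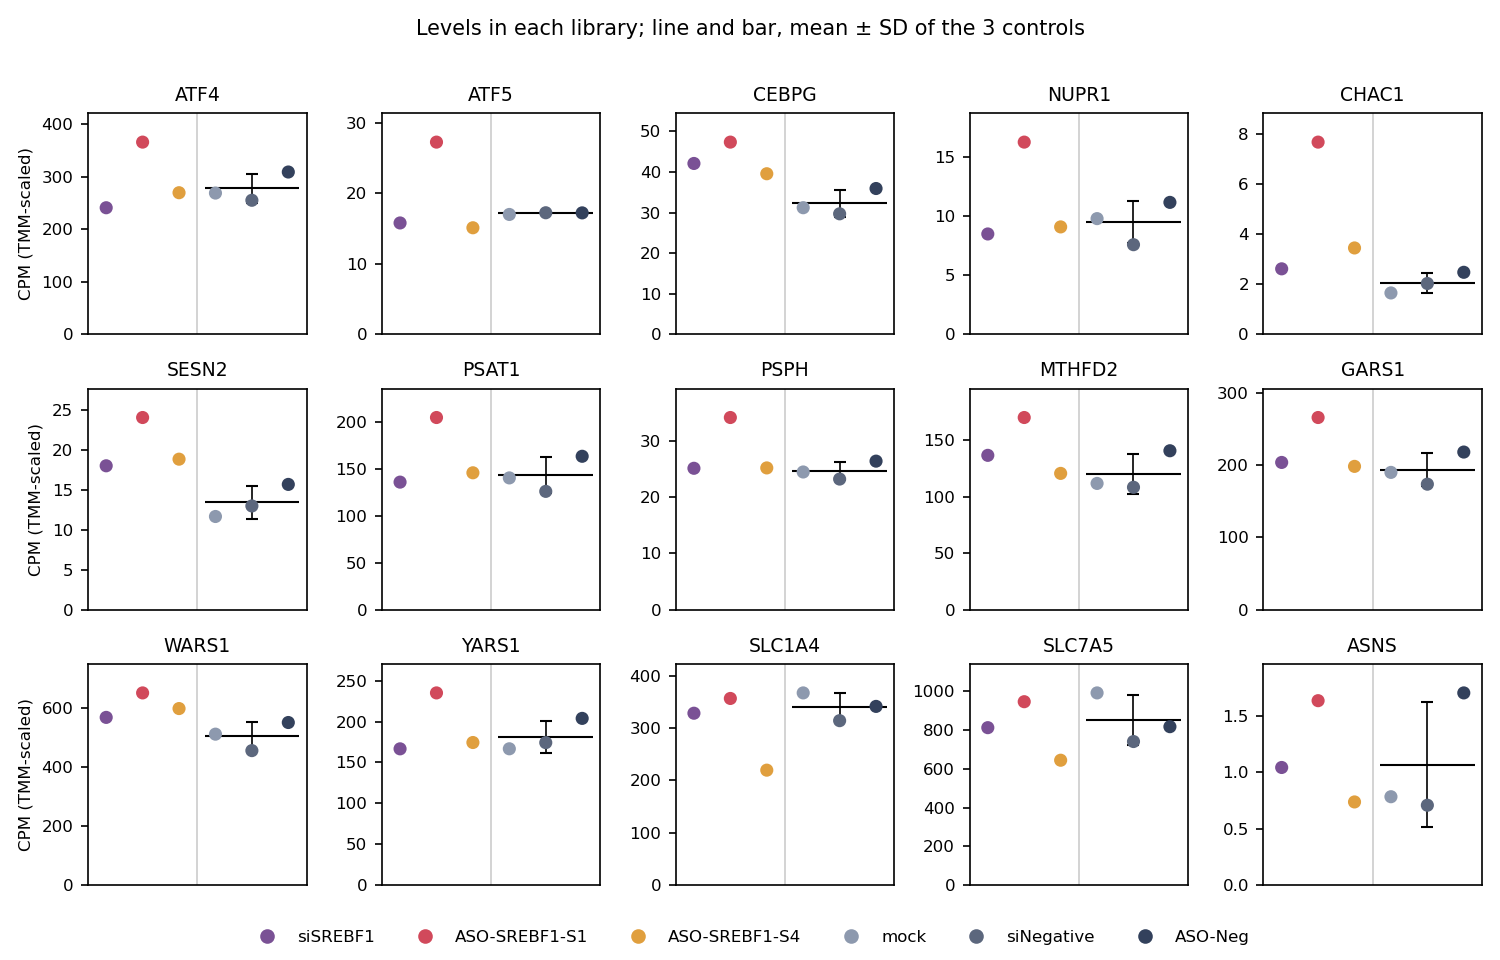
Each panel is 1 gene, each point the CPM (linear axis from 0) of 1 library, SREBF1-targeting left of the grey line and controls right of it; the black line and bar are the mean ± SD of the 3 controls. In the 12 genes called with ASO-SREBF1-S1 its point is the highest of the 6, in SLC1A4 the ASO-SREBF1-S4 point is the lowest, and in ASNS all points lie under 2 CPM.

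Of the stress effectors, CHAC1 and SESN2 rose with ASO-SREBF1-S1. CHAC1 (chromosome 15, 40952962 to 40956512, plus strand) had 2.61, 7.66 and 3.44 CPM in siSREBF1, ASO-SREBF1-S1 and ASO-SREBF1-S4, from 35, 370 and 56 reads, against 1.65, 2.02 and 2.47 CPM in mock, siNegative and ASO-Neg, from 21, 40 and 42 reads. All 3 SREBF1-targeting libraries lay above the controls, and ASO-SREBF1-S1 was 3.69-fold higher than the controls (log2 ratio 1.88, SE 0.20, edgeR adjusted p = 0.000111), the largest rise among the members. The level was low in every library, and the ratios with siSREBF1 (0.33) and ASO-SREBF1-S4 (0.73) did not pass.

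SESN2 (chromosome 1, 28259518 to 28282491, plus strand) had 18.0, 24.1 and 18.9 CPM in siSREBF1, ASO-SREBF1-S1 and ASO-SREBF1-S4, against 11.7, 13.0 and 15.7 CPM in the controls. The groups did not overlap, and the rise passed for ASO-SREBF1-S1 (log2 ratio 0.83, SE 0.13, edgeR adjusted p = 0.00234) but not for siSREBF1 or ASO-SREBF1-S4 (0.41 and 0.48, edgeR adjusted p = 0.208 and 0.0846). VLDLR, a lipoprotein receptor and the effector with the highest mean CPM, had 76.0, 55.0 and 64.1 CPM in the SREBF1-targeting libraries against 71.1, 71.1 and 62.7 CPM in the controls. Its ASO-SREBF1-S1 ratio of -0.31 was the lowest of the members and did not pass (edgeR adjusted p = 0.0701).

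In the serine and folate group, 3 of 6 enzymes rose with ASO-SREBF1-S1 and the group median was 0.45. PSAT1 (chromosome 9, 78297125 to 78330093, plus strand), the aminotransferase of serine synthesis, had 135.6, 204.3 and 145.5 CPM in siSREBF1, ASO-SREBF1-S1 and ASO-SREBF1-S4, against 140.1, 125.8 and 163.1 CPM in the controls. PSPH (chromosome 7, 56011051 to 56051604, minus strand), the phosphatase that completes serine, had 25.2, 34.2 and 25.2 CPM, against 24.5, 23.3 and 26.5 CPM in the controls. MTHFD2 (chromosome 2, 74186172 to 74217565, plus strand), a mitochondrial folate enzyme, had 136.5, 170.0 and 120.5 CPM, against 111.7, 108.3 and 140.6 CPM in the controls. In each of the 3 genes only ASO-SREBF1-S1 exceeded every control.

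Their log2 ratios with ASO-SREBF1-S1 were 0.52, 0.47 and 0.50 (SE 0.11, 0.10 and 0.11, edgeR adjusted p = 0.013, 0.0136 and 0.0204), and none of the 3 passed in DESeq2. PHGDH, which commits carbon to serine, had 98.3, 143.7 and 103.1 CPM in the SREBF1-targeting libraries against 113.6, 104.2 and 130.5 CPM in the controls, and its ratio of 0.31 did not pass (edgeR adjusted p = 0.102). SHMT2, the mitochondrial enzyme that splits serine to glycine and the member of the group with the highest mean CPM, had 292.9, 313.8 and 254.4 CPM against 282.5, 275.8 and 305.0 CPM. ALDH1L2, a mitochondrial folate dehydrogenase, had 47.5, 57.7 and 50.8 CPM against 36.8, 38.6 and 53.0 CPM, with the ASO-Neg control inside the range of the SREBF1-targeting libraries.

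ASNS, which makes asparagine and is often used as a readout of ATF4 activity, was close to silent in all 6 libraries. It had 14, 79 and 12 reads in siSREBF1, ASO-SREBF1-S1 and ASO-SREBF1-S4, worth 1.04, 1.64 and 0.74 CPM, against 10, 14 and 29 reads in mock, siNegative and ASO-Neg, worth 0.78, 0.71 and 1.70 CPM. The groups overlapped and no contrast passed (ASO-SREBF1-S1 log2 ratio 0.61, SE 0.38, edgeR adjusted p = 0.425). Its promoter window holds the ATF4 core printed above. The proline enzymes PYCR1 and ALDH18A1 kept to 54.0 to 65.5 CPM and 114.4 to 135.9 CPM over the 6 libraries, with no call. ALDH18A1, the group's highest by CPM, was lowest in ASO-SREBF1-S1.

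The transsulfuration enzymes CTH and CBS, which turn homocysteine towards cysteine, were low, with 4.70 to 6.02 CPM and 2.12 to 2.80 CPM over the libraries, and neither passed in any contrast. CTH had 4.92, 6.01 and 5.47 CPM in siSREBF1, ASO-SREBF1-S1 and ASO-SREBF1-S4, against 4.70, 6.02 and 5.06 CPM in the controls, which overlapped fully. CBS has a near-identical copy in GRCh38, so its counts are uncertain.

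Among the 7 amino acid transporters 0 were called with ASO-SREBF1-S1, with a median of 0.16, and SLC1A4 fell with ASO-SREBF1-S4. SLC1A4 (chromosome 2, 64988477 to 65023865, plus strand), a carrier of alanine, serine and cysteine, had 328.1, 356.3 and 219.4 CPM in siSREBF1, ASO-SREBF1-S1 and ASO-SREBF1-S4, against 366.9, 313.9 and 341.2 CPM in mock, siNegative and ASO-Neg. Only ASO-SREBF1-S4 lay outside the control range, at 0.643 of the control level (log2 ratio -0.64, SE 0.10, edgeR adjusted p = 0.00132), and the call held under every alternative tried, with a highest adjusted p of 0.00463.

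SLC7A5, the large neutral amino acid transporter and the group's highest by CPM, had 812.5, 946.6 and 644.3 CPM in the SREBF1-targeting libraries, in the same order, against 991.9, 740.8 and 817.6 CPM in the controls. ASO-SREBF1-S4 was its lowest library, and its ratio of -0.40 did not pass (edgeR adjusted p = 0.076). Its partner chain SLC3A2, with 226.9 to 292.1 CPM, also had its lowest value in ASO-SREBF1-S4. The same library was lowest for SLC7A1, the cationic carrier (296.4 CPM, against 322.4 to 348.3 CPM in the controls), and for SLC1A5, the glutamine carrier (138.8 CPM, against 152.3 to 173.6 CPM), without a call. SLC38A2, a sodium-coupled neutral carrier, had its highest value in siSREBF1 (317.5 CPM, against 239.1 to 281.8 CPM in the controls), and the glycine carrier SLC6A9 stayed under 4 CPM.

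All 9 cytosolic tRNA synthetases had an ASO-SREBF1-S1 ratio above 0, with a median of 0.29, and 3 rose. WARS1 (chromosome 14, 100333790 to 100376805, minus strand), which loads tryptophan, had 567.8, 650.7 and 597.7 CPM in siSREBF1, ASO-SREBF1-S1 and ASO-SREBF1-S4, against 511.0, 455.3 and 550.5 CPM in the controls. All 3 SREBF1-targeting libraries lay above the controls. GARS1 (chromosome 7, 30580533 to 30634033, plus strand), for glycine, had 203.6, 265.8 and 198.2 CPM, against 189.9, 173.6 and 218.0 CPM in the controls. YARS1 (chromosome 1, 32775237 to 32818031, minus strand), for tyrosine, had 166.7, 235.1 and 174.4 CPM, against 166.7, 174.3 and 203.9 CPM in the controls. For GARS1 and YARS1 only ASO-SREBF1-S1 exceeded every control.

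The ASO-SREBF1-S1 log2 ratios were 0.46 for GARS1, 0.37 for WARS1 and 0.37 for YARS1 (SE 0.10, 0.09 and 0.10, edgeR adjusted p = 0.0183, 0.0397 and 0.0432). The WARS1 and YARS1 calls were also lost with DESeq2's size factors in edgeR. CARS1, EPRS1, MARS1, NARS1 and SARS1, for cysteine, glutamate with proline, methionine, asparagine and serine, had ratios of 0.29, 0.22, 0.22, 0.22 and 0.31 without a call. AARS1, for alanine, had the smallest at 0.04, and its highest library was the control ASO-Neg at 399.4 CPM.

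**Figure D4:**
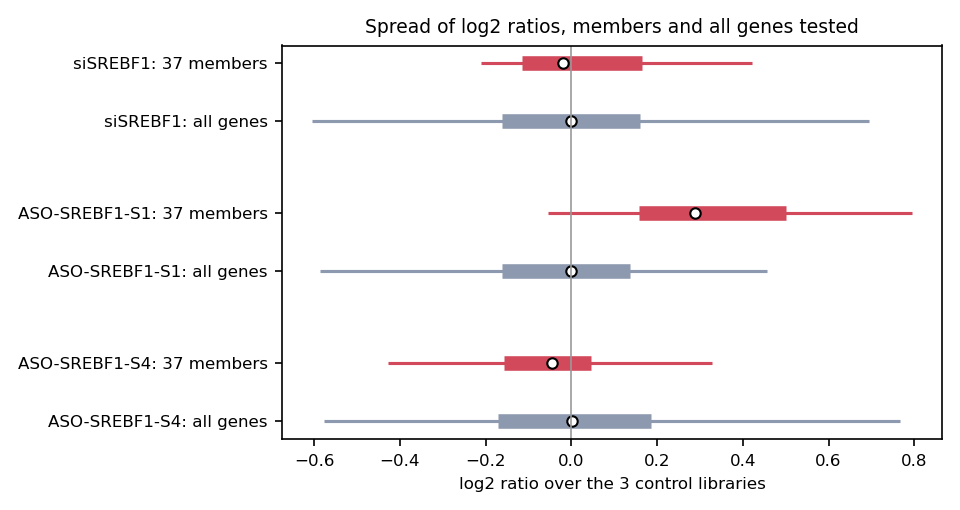
For each SREBF1 reagent over the 3 controls, the white point is the median log2 ratio, the thick bar spans the 25th to 75th percentile and the thin line the 5th to 95th, for the 37 members (red) and all 16297 genes tested (grey). The member bars have medians of -0.02, 0.29 and -0.05 for siSREBF1, ASO-SREBF1-S1 and ASO-SREBF1-S4, and the medians of all genes lie at 0.

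The 2 SREBF1 ASOs, at the same dose and time, were compared as 1 pair of libraries, with the spread taken from the 3 controls alone, so the test compares these libraries and has no replicate of either ASO. ASO-SREBF1-S1 was higher than ASO-SREBF1-S4 for 10 of 37 members and lower for 0, where 2.47% of all genes were called higher and 3.68% lower. At an unadjusted p under 0.05, 21 members were higher and 1 lower in edgeR, out of 1673 and 1805 genes. The members' median was 0.35, and 34 of 37 lay above 0. The largest were CHAC1 (log2 ratio 1.16, SE 0.26), ATF5 (0.86, SE 0.14), NUPR1 (0.84, SE 0.22) and SLC1A4 (0.70, SE 0.11), with edgeR adjusted p values of 0.0183, 0.00252, 0.0346 and 0.00225. SLC7A5 (0.56), PSAT1 (0.49), PHGDH (0.48), ATF4 (0.44), TRIB3 (0.41) and SLC1A5 (0.39) also passed.

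For ATF5 and NUPR1 the ASO-SREBF1-S1 level was above every control, while for SLC1A4 the ASO-SREBF1-S4 level was below every control. The count of 10 was 17 without mock, 18 without ASO-Neg, 4 with ASO-SREBF1-S1 thinned to the depth of ASO-SREBF1-S4, 3 by library size alone and 2 in DESeq2. The count of all genes called higher, 402, was 718, 895, 263, 262 and 170 under these alternatives, in the same order. ATF5 and SLC1A4 passed under every alternative tried. For members that did not pass, the size of the difference stays loosely bounded, as for SESN2 (0.36, SE 0.17) and CEBPG (0.26, SE 0.13).

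Set against the control of the same chemistry, 1 library over 1 library and with no test, the ASO-SREBF1-S1 excess was smaller. Of the 31 members with at least 10 CPM in 1 of the 2 libraries, 3 were at least 0.5 higher on the log2 scale in ASO-SREBF1-S1 than in ASO-Neg and 0 at least 0.5 lower, where 1.28% and 2.23% of genes were. The median was 0.15 and 26 of 31 lay above 0. The 3 were ATF5 (0.66, 95% counting interval 0.48 to 0.84), SESN2 (0.61, 0.42 to 0.81) and NUPR1 (0.54, 0.31 to 0.77). CHAC1, below 10 CPM, had 1.60 (1.14 to 2.06).

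For ASO-Neg over mock, 24 of 31 members lay above 0, with a median of 0.19 against 0.01 for all genes. The folate enzyme ALDH1L2 was the 1 member at least 0.5 higher (0.52, 0.36 to 0.68), where 0.266% of genes were, and 0 were at least 0.5 lower, where 0.912% were. For siNegative over mock the median was -0.05, with 10 of 30 members above 0 and 0 members past 0.5 either way, where 0.673% of genes were higher and 0.143% lower. Both ratios share the mock library, and the difference between them was not tested. Whether the control ASO takes part in the levels seen with ASO-SREBF1-S1 was not tested.

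ASO-SREBF1-S4 over ASO-Neg had a median of -0.16, with 6 of 31 members above 0. SLC1A4 was the 1 member at least 0.5 lower (-0.64, -0.70 to -0.58), where 2.29% of genes were, and 0 were at least 0.5 higher, where 3.07% were. Over siNegative, siSREBF1 had a median of 0.09 and 20 of 30 members above 0. CEBPG was the 1 member at least 0.5 higher (0.50, 0.34 to 0.67), where 1.77% of genes were, and 0 were at least 0.5 lower, where 2.11% were.

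Genes next to the members in the pathway were set beside them, in lists also chosen with earlier results of these data known. Of all genes tested with ASO-SREBF1-S1 over the 3 controls, 2.12% were called higher and 3.18% lower. Among 20 tested genes known as other targets of ATF4 or its partner CHOP, 7 rose and 0 fell, with a median of 0.21. They were ADM2, a peptide hormone (log2 ratio 1.24, edgeR adjusted p = 0.000386), NIBAN1 (0.79), DDIT3, which encodes CHOP (0.70), ATF3 (0.68), PCK2, the mitochondrial phosphoenolpyruvate carboxykinase (0.59), PPP1R15A, which directs the phosphatase that resets eIF2 (0.44), and SQSTM1, an autophagy receptor (0.43). ADM2 had 8.12, 13.6 and 9.09 CPM in siSREBF1, ASO-SREBF1-S1 and ASO-SREBF1-S4, against 5.80, 4.91 and 6.64 CPM in the controls, which did not overlap. None of the 20 was called with siSREBF1, where 1.71% of all genes were called higher and 1.86% lower. None was called with ASO-SREBF1-S4 either, where 2.99% and 3.02% of all genes were.

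The machinery upstream of ATF4 was not called with ASO-SREBF1-S1. The list of 16 genes held eIF2 kinases, eIF2, its exchange factor eIF2B, and GCN1, DELE1, OMA1 and PPP1R15B. Of these 16, 0 passed either way, with a median of 0.13. With siSREBF1, EIF2AK2, a kinase activated by double-stranded RNA, fell by 0.39 on the log2 scale and DELE1, which relays mitochondrial stress to an eIF2 kinase, fell by 0.43. ER chaperones of the ATF6 and XBP1 arms, another branch of the stress response, had 0 of 12 called with ASO-SREBF1-S1 and a median of -0.03. With ASO-SREBF1-S4, DNAJB11 (0.41) and HSPA5 (0.37) rose, and HSP90B1 (-0.45) and PDIA4 (-0.53) were lower in ASO-SREBF1-S1 than in ASO-SREBF1-S4.

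Among synthetases and transporters outside the 38 genes, 0 of 11 other cytosolic tRNA synthetases, 0 of 17 mitochondrial ones and 0 of 14 other amino acid transporters were called with ASO-SREBF1-S1, with medians of 0.13, -0.02 and -0.06. With ASO-SREBF1-S4, HARS1, for histidine, fell by 0.80 on the log2 scale, QARS1, for glutamine, by 0.34, and EARS2, for mitochondrial glutamate, by 0.33. LARS2, for mitochondrial leucine, fell by 0.37 with siSREBF1. HARS1 (0.86), FARSB, for phenylalanine (0.41), and the lysosomal carrier SLC38A7 (0.50) were higher in ASO-SREBF1-S1 than in ASO-SREBF1-S4, and SLC43A2, another neutral amino acid carrier, was lower (-0.79). Other folate and glycine enzymes had 0 of 8 called, and TYMS, which makes thymidylate, had the smallest p, at a log2 ratio of -0.11.

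**Figure D5:**
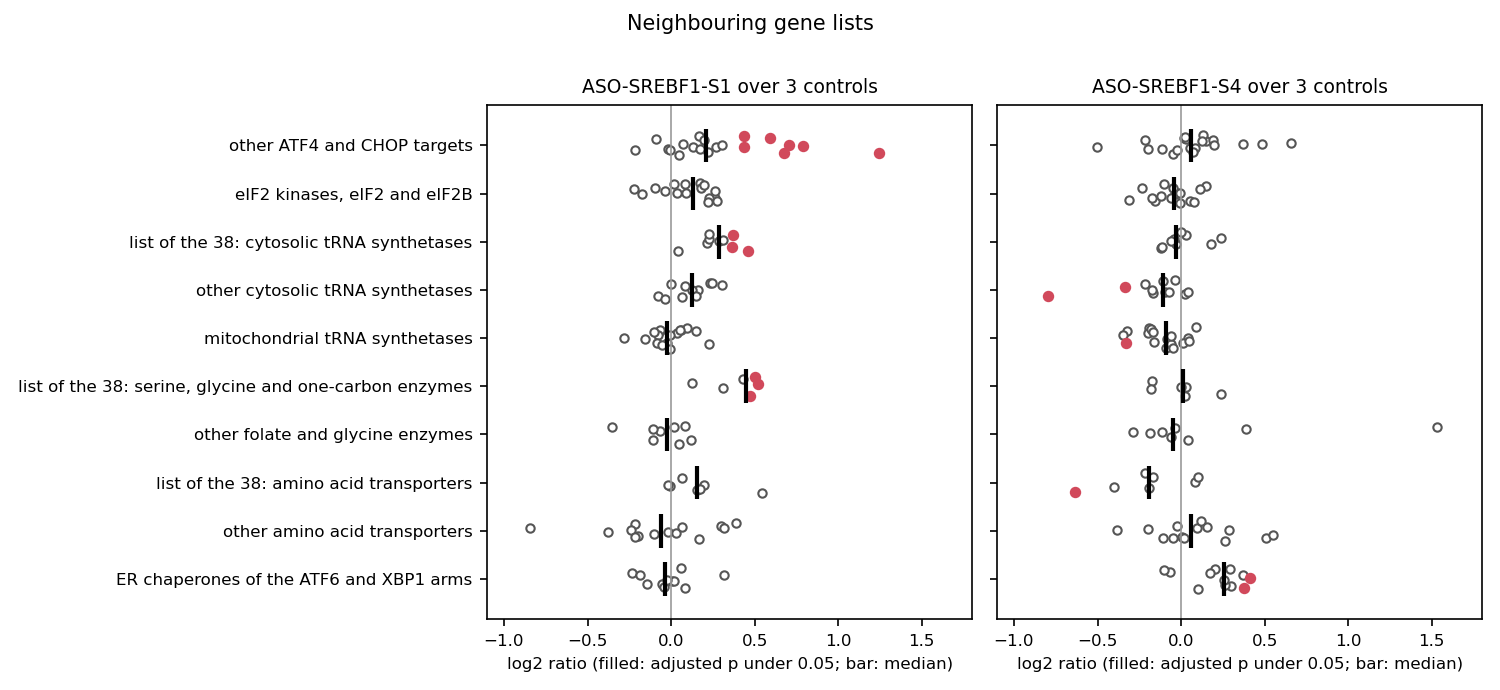
Each point is 1 tested gene and each bar the median of its list, as log2 ratios of ASO-SREBF1-S1 (left) and ASO-SREBF1-S4 (right) over the 3 controls; filled points passed an adjusted p of 0.05. With ASO-SREBF1-S1 the filled points lie in the other ATF4 and CHOP targets and in the member synthetases and serine enzymes, all above 0.

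Melanocyte genes moved beside the members in the ASO pair. TYRP1, DCT and TYR, enzymes of melanin synthesis, were higher in ASO-SREBF1-S1 than in ASO-SREBF1-S4 by 1.21, 0.76 and 0.61 on the log2 scale, and S100B was lower (-0.36), each called in edgeR. TYR and TYRP1 fell with ASO-SREBF1-S4 (-0.56 and -0.68), PMEL fell with siSREBF1 (-0.53), and 0 of 8 markers were called with ASO-SREBF1-S1 over the controls. Their part in the differences between members was not tested.

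Per kilobase of transcript the members spanned a wide range in the controls. ATF4 (195 CPM per kb), WARS1 (192) and SLC7A5 (187) were the highest, followed by SLC3A2 (135) and SHMT2 (133). These neighbours in the order were not separated by a test. At the other end stood STC2, ASNS (0.447), JDP2 (0.656), SLC6A9 (0.824) and CBS (0.955). The members called with ASO-SREBF1-S1 were found across this range, among them CHAC1 at 1.35, ATF5 at 8.55, PSAT1 at 64.8 and ATF4.

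Among the members with a window, the promoter core stood in 3 of the 9 that rose with ASO-SREBF1-S1 and in 10 of the 23 others, small numbers that carry no test. The median ASO-SREBF1-S1 log2 ratio was 0.22 over the 13 tested members with the core and 0.29 over the 18 with a window but no core.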

How the data were processed

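Polyadenylated, strand-specific libraries of HT-144 cells were sequenced as 75 bp read pairs, per the labels' protocols. The authors deposited counts per gene for each lane, unnormalised, with unstranded and per-strand columns. They named STAR 2.6.1a, FastQC and GRCh38, per the submitters' processing notes, and the annotation release is not given in the sources used here.

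Here the reverse-strand counts of the 4 lanes of each library were summed. The other strand held 6.47% to 7.79% of the counts of both strands. Lanes of 1 library had a chi-square over degrees of freedom of 1.018 to 1.047, against 2.027 to 8.69 between libraries. Reads naming no gene (18.2% to 19.4%) were left out. Symbols and coordinates came from GENCODE release 44, matched for 58207 identifiers. A floor of 3 counts was worth 0.0626 to 0.232 CPM, and intervals and floors cover counting error only.

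Differences were tested with edgeR 4.0.16 (R 4.3.3): TMM scaling, genes kept by filterByExpr, a 2-sided quasi-likelihood F test, and p adjusted by Benjamini and Hochberg over all genes tested, called under 0.05. One fit set 3 SREBF1-targeting against 3 control libraries. In another each reagent was a class of its own, with the spread taken from the controls. Ratios of 1 library to 1 library used a prior count of 2 and have no test. Alternatives were DESeq2 1.42.0, other scalings, no filter, unstranded counts, chemistry as a term, leaving out each library and, added after depths were seen, thinning. The test scripts were checked on simulated counts.

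The members and neighbouring lists were chosen with earlier results of these data known. Named genes were members past the threshold in any test, ATF4, the member with the highest mean CPM in each role group, and list genes past the threshold or, failing that, the 2 with the smallest p. One gene that this rule names is not reported here. Other members are named to account for all 38.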

Additional observations from a re-analysis of the deposited data

Results flagged for a closer look

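In edgeR 10 members were called different between the 2 SREBF1 ASOs, each of them 1 library, with the spread taken from the 3 controls, and that difference is why they are given here. ASO-SREBF1-S1 over ASO-SREBF1-S4, on the log2 scale in edgeR, gave 0.445 for ATF4, 0.855 for ATF5, 0.843 for NUPR1, 0.41 for TRIB3 and 1.16 for CHAC1. It gave 0.482 for PHGDH, 0.493 for PSAT1, 0.559 for SLC7A5, 0.703 for SLC1A4 and 0.389 for SLC1A5. The 2 libraries had SREBF1 at 76.9 CPM with ASO-SREBF1-S1 and 70.3 CPM with ASO-SREBF1-S4, a log2 ratio of 0.13 that was not called. Their depths were 47900277 and 15901894 counts, and with ASO-SREBF1-S1 thinned to the depth of ASO-SREBF1-S4 4 members were called, against 3 by library size alone and 2 in DESeq2.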

How the results depend on the processing

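Directions were compared for members called in a comparison and, in the 3 against 3 comparison, for members with an unadjusted p under 0.05. None of these values reversed its direction, but members' medians near 0 changed sign. Other members did change sign, as 15 of 37 lay above 0 with ASO-SREBF1-S4, and 21 without ASO-Neg. The 3 against 3 median was 0.08, and -0.02 without ASO-SREBF1-S1. The siSREBF1 median was -0.02, and 0.03 by library size alone, 0.003 without a filter, 0.01 without mock and 0.05 without ASO-Neg. The ASO-SREBF1-S4 median was -0.05, and 0.01 by library size alone and 0.03 without ASO-Neg. The medians of the single-library ratios moved by less than their counting intervals. No paired analysis was possible because the replicate numbers are lanes of 1 library, which were summed. Members called higher in the 3 against 3 comparison numbered 0 as reported, out of 3 genes. They numbered 3 without a filter on low counts (CEBPG, CHAC1 and SESN2), out of 287 genes, and 1 in DESeq2, out of 77. With chemistry as a term edgeR called 0 of 15123 genes, and 812 had an unadjusted p under 0.05. Without the filter, siSREBF1 had 1 higher, ASO-SREBF1-S4 had 1 higher and 2 lower, and ASO-SREBF1-S1 over ASO-SREBF1-S4 had 17 higher. DESeq2 called 7 members higher with ASO-SREBF1-S1. In the contrast of ASO-SREBF1-S1 over ASO-SREBF1-S4 it called 2, and that contrast had 3 by library size alone and 4 after thinning. Where a member count rose or fell, the count of all genes called in that direction moved the same way, except without siNegative. There, members called lower with ASO-SREBF1-S4 became more while all genes called lower became slightly fewer. Members called higher in ASO-SREBF1-S1 over ASO-SREBF1-S4 also became more while all genes called higher became slightly fewer. The causes were not tested.

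Leaving out 1 library at a time gave 0 to 5 higher for siSREBF1, 9 to 22 higher and 0 to 1 lower for ASO-SREBF1-S1, 0 to 6 higher and 1 to 2 lower for ASO-SREBF1-S4, and 8 to 18 higher for ASO-SREBF1-S1 over ASO-SREBF1-S4. The most members called higher came without ASO-Neg, and so did the most genes called higher in each of these comparisons. Among the values whose directions were compared, 264 kept their side of the threshold under the alternatives, 40 lost the call and 4 gained it. With 1 library per reagent, a second culture could differ by more than the 3 controls did. Genes under about 10 CPM, such as CHAC1, rest on few reads.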

Other observations

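The pseudogene ASNSP1 had 4, 40 and 5 reads in siSREBF1, ASO-SREBF1-S1 and ASO-SREBF1-S4, against 4, 0 and 2 reads in mock, siNegative and ASO-Neg, beside 14, 79 and 12 reads and 10, 14 and 29 reads for ASNS. How reads that match both ASNS and this copy were counted is not known here. MTHFD2L, the paralogue of MTHFD2, had 73, 250 and 84 reads, against 41, 99 and 86 reads in the controls. The metabolic hormone FGF21, a target of ATF4 in liver, was not tested, with 0, 6 and 3 reads in the SREBF1-targeting libraries, in the same order, against 0 in each control.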
